A study of Mus musculus with 32 samples.

Results

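The comparison described here sets Pmel CD8 T cells recovered from the lung against naive Pmel CD8 T cells taken from the spleen. It uses 8 of the 32 bulk RNA sequencing libraries of the study, 4 labelled Lung and 4 labelled Naive, chosen by these labels alone. Pmel cells are CD8 T cells that carry a transgenic T cell receptor for gp100, a protein of melanocytes and melanoma, and here they also carried the congenic marker Thy1.1, by which they were identified. All 8 libraries have the same labels for strain (C57BL/6), age (16 weeks) and disease state (melanoma-associated vitiligo), the autoimmune loss of pigment that can follow melanoma treatment. Lung cells were collected 45 days after the tumor was removed by surgery. The labels give no time for the naive cells, nor how they were separated from other spleen cells. Lung tissue was minced, digested with Liberase and DNase I and passed over a Percoll gradient, steps not stated for the naive cells, so tissue, digestion and memory state cannot be told apart in this comparison. The other 6 groups, also of 4 libraries, were lymph node cells labelled day 12, lymph node memory cells, and cells from spleen, skin, liver and tumor.

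A naive CD8 T cell circulates between blood, spleen and lymph nodes, guided by homing molecules such as the chemokine receptor CCR7, under transcription factors such as TCF1 and LEF1. After it meets antigen it divides and its descendants differentiate. Some lose the lymph node homing molecules and patrol blood and tissues as effector memory cells, and others settle in organs such as skin and lung as tissue-resident memory cells, which are known for CD69, the integrins CD103 and CD49a, CXCR6 and low S1PR1, the receptor for the signal by which T cells leave tissues.

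Values are TPM, a measure of transcript abundance that scales for gene length and gives every library the same sum. Read counts are not part of the table used here, so depth is unknown, and a change is given on the log2(TPM + 1) scale, lung minus naive, with the standard error (SE) of the fit and the adjusted p of limma. That scale understates the change of genes near 0. Each group has n = 4 libraries throughout. No label ties the libraries to separate animals. The p-values therefore cover the spread among the libraries only, and that spread may be technical. It was pooled over the libraries of all 8 groups, with residual SDs on the log2 scale from 0.303 in day 12 lymph node to 1.33 in liver. Whether a gene passed thus also depended on groups outside this comparison.

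Both groups matched their label as Pmel cells. The segment Trbv14, which encodes the Vbeta13 chain of the Pmel receptor, supplied 99.3% to 99.4% of the TPM of all Trbv segments in naive cells and 97.0% to 99.6% in lung cells. The lung libraries were more variable, with a residual SD of 0.961 on the log2 scale against 0.387 in naive cells, and they also held RNA of other cells. Marker genes of B cells summed to 3984, 1448, 49554 and 15294 TPM in lung replicates 1 to 4, against 900 to 1097 TPM in naive cells, and 8 of the 19 passed as higher (13 without lung replicate 2). Myeloid markers summed to 1602, 2897, 13963 and 10735 TPM in the same order against 258 to 305 TPM, and 18 of 26 tested passed as higher. Lung epithelial markers reached 115 to 3448 TPM against 5.24 to 9.43 TPM, led by the club cell gene Scgb1a1. Lung replicate 3 stood apart with 11910 TPM of hepatocyte and 23704 TPM of erythroid and platelet markers, where the other lung libraries had at most 56.4 and 1868 TPM. NK cell markers summed to 22, 1.48, 8.53 and 93.8 TPM in lung replicates 1 to 4 and 2.17 to 6.29 TPM in naive cells. None of the 7 passed, with 1 higher at an unadjusted p under 0.05. Markers of neutrophils and mast cells summed to 725, 165, 3217 and 549 TPM in lung against 7.01 to 17.9 TPM in naive cells. Of 13 tested 4 passed as higher, S100a8 and S100a9 among them, while Ngp and Elane, genes of immature neutrophils, were at 0 in every lung library. Plasma cell markers summed to 700.5, 60.3, 5336.5 and 1029.5 TPM in lung against 49.4 to 59 TPM in naive cells, and 6 of 9 passed as higher. The part of these other cells in the results below was not tested. The counts of the gene lists below are therefore also given without lung replicates 3 and 4, the libraries with the most B cell and myeloid RNA.

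The T cell genes themselves took a smaller share of the lung libraries. A list of 16 T cell identity genes summed to 25473, 20589, 15852 and 19453 TPM in lung and 37668 to 43700 TPM in naive cells, so that the lung mean was 50% of the naive mean. Most of that difference lay in Trbc2, a constant segment of the T cell receptor beta chain, with 12791, 10437, 8403 and 9285 TPM in lung and 28696, 25302, 24941 and 29188 TPM in naive cells. Trbc2 supplied 66.4% of the naive sum, and without Trbc1 and Trbc2 the lung mean of the other 14 genes was 81.4% of the naive mean. The CD3 gamma chain Cd3g stood at 1735, 1459, 990.5 and 1449.6 TPM in lung against 1630.1, 1384, 1397 and 1604 TPM in naive cells, and the groups overlapped. Across the list, 8 of 16 genes had every lung library below every naive one, against 11.9% of all genes tested. Another 2 had every lung library above, against 9.19% of all genes. The median change of the list was -0.43, and 4 members were lower at an unadjusted p under 0.05. Of the 16 genes Trbc1 alone passed the test, falling by 1.59 ± 0.47 (adjusted p = 0.0292), with an adjusted p between 0.0522 and 0.0782 when any single library other than lung replicate 2 was left out. In bulk RNA, fewer cells of a type and less RNA per cell cannot be told apart.

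**Figure D1:**
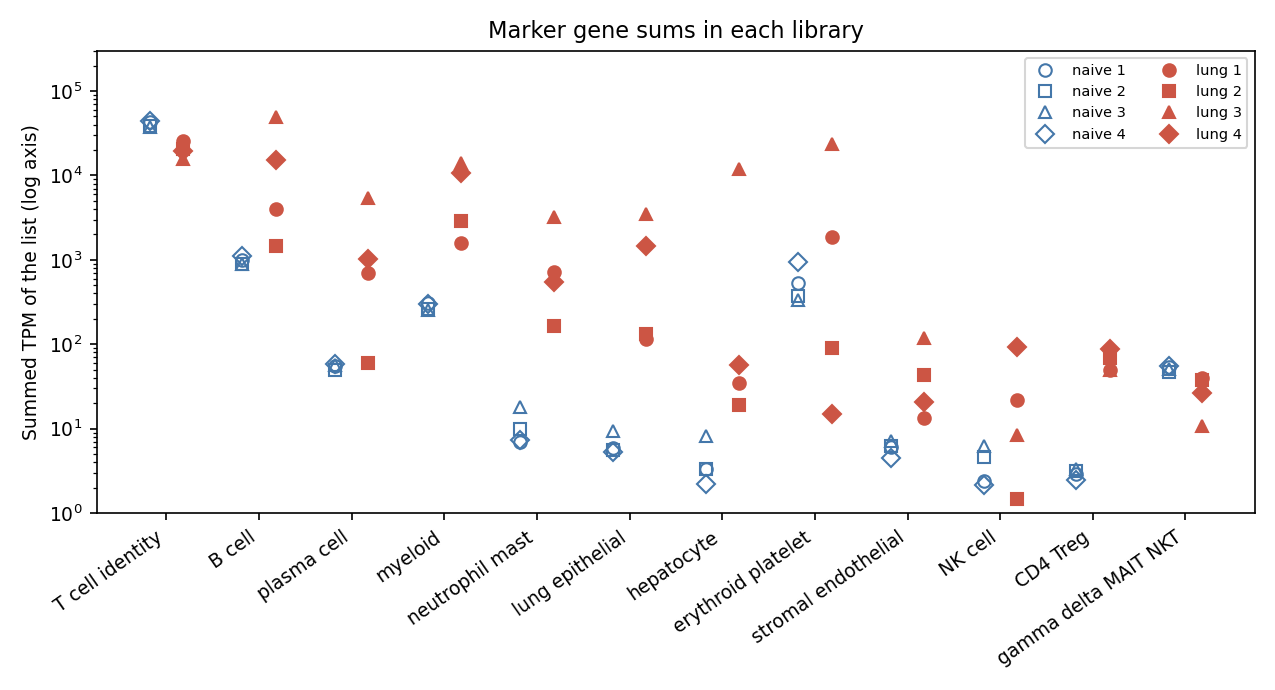
Summed TPM (log axis) of marker gene lists in each of the 4 naive (blue, open) and 4 lung (red, filled) libraries, with 1 marker shape per replicate number. T cell identity sums lie between 15852 and 25473 TPM in lung and between 37668 and 43700 TPM in naive libraries, and lung replicate 3 has the highest sums for B cell, myeloid, hepatocyte and erythroid genes.

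Of 19738 genes tested, 959 (4.86%) were higher and 895 (4.53%) lower in lung cells than in naive cells, 9.39% in all, and the median change over all genes was -0.0048. Every lung library lay above every naive library for 9.19% of the genes and below for 11.9%. Of the called genes 51.7% were higher. This split depended on the scaling. With each library scaled to the same T cell identity sum, 1489 genes were higher and 88 lower (94.4% higher, the median of all genes moving to 0.639). With Trbc1 and Trbc2 left out of that sum the counts were 775 and 218 (78.0%, median 0.185), and after quantile normalization 914 and 1361 (40.2%). Without lung replicates 3 and 4 the counts were 733 and 580, and without naive replicate 1 alone 691 and 596. They were 1931 and 2214 without 6 libraries of other groups with a low T cell identity sum. Where a list below has no call in 1 direction, its count there at an unadjusted p under 0.05 was 0, except for 1 cytokine gene, 2 residency genes and 3 survival genes with lower levels and the respiratory chain genes given there. By the rule for naming genes 73 higher and 45 lower genes are named below or belong to the lists, and all 73 higher ones passed on the T cell identity scale, but 15 of the 45 lower ones did. Every lung identity sum lay below every naive one, so this scale raises each lung library relative to each naive one. That alone enlarges rises and shrinks falls, so the passing of the higher genes there does not make them firmer. With Trbc1 and Trbc2 left out of the sum, 70 of 73 and 27 of 45 passed. Leaving out lung replicates 3 and 4 kept 64 of 73 and 35 of 45.

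Chemokines and cytokines made by effector T cells were among the genes that rose most. Of 27 tested members of this list 12 were higher and none lower, with a median change of 1.45, and without lung replicates 3 and 4 there were 10. Ccl5, which encodes the chemokine RANTES and lies on chromosome 11 (bases 83525778 to 83530518 of the minus strand, mm10), had 16442, 13441, 9995 and 8324 TPM in lung and 0.82, 3.01, 3.91 and 1.06 TPM in naive cells. All 4 lung libraries were high and far from the naive ones. The change was 11.96 ± 0.65 (adjusted p = 9.22e-14). Ccl4, an inflammatory chemokine, had 290.4, 325, 189.9 and 273 TPM in lung and 0.75, 0.98, 1.34 and 0.75 TPM in naive cells, with no overlap (7.1 ± 0.53, adjusted p = 6.41e-11). Ifng, the gene of interferon gamma, had 132, 120.2, 113 and 143 TPM in lung and 0.06, 0.3, 0.05 and 0.22 TPM in naive cells. The 4 lung libraries were close to each other, and the change was 6.79 ± 0.59, adjusted p = 1.47e-09. Csf1, a growth factor of macrophages, changed by 6.25 ± 0.63, adjusted p = 2.74e-08. Ccl3 (5.28 ± 0.82), Xcl1 (4.33 ± 0.97), Csf2 (2.12 ± 0.50) and Il2 (2.42 ± 0.69) were higher at lower levels, and lung replicate 2 had the most Xcl1 at 232 TPM, against 10.7 to 34.7 TPM in the other 3 lung libraries. The inflammatory cytokine Tnf had 9.33 to 21.7 TPM in lung and 5.47 to 7.99 TPM in naive cells and did not pass (adjusted p = 0.316).

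The killing machinery rose in part. Of 24 tested genes of cytotoxic granules and death ligands 12 were higher and none lower (median 1.29, and 10 higher without lung replicates 3 and 4). Gzmb, the protease granzyme B (chromosome 14, bases 56258838 to 56262260, minus strand), had 1276, 496, 283 and 786 TPM in lung and 0.93, 0.6, 0.63 and 1.17 TPM in naive cells (8.4 ± 0.55, adjusted p = 4.35e-12). Gzma, granzyme A, had 3777, 455, 698 and 2020.1 TPM in lung and 4.36, 5.35, 4.8 and 4.39 TPM in naive cells (7.77 ± 0.90, adjusted p = 4.54e-07). Both were highest in lung replicates 1 and 4, and neither overlapped with naive cells. Gzmk varied most among the granzymes, with 332, 18.2, 41.1 and 228 TPM in lung and at most 0.15 TPM in naive cells (6.36 ± 1.04, adjusted p = 9.13e-05). Fasl, the ligand that triggers the death receptor Fas, rose by 6.39 ± 0.55, adjusted p = 1.2e-09, and the receptor Slamf7 by 5.86. Perforin, the pore former encoded by Prf1, was already present in naive cells at 47.1 to 54.0 TPM and reached 284, 66.6, 71.4 and 162 TPM in lung. The groups did not overlap, but the change of 1.27 ± 0.81 did not pass (adjusted p = 0.374).

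Receptors first described on natural killer cells followed, with 7 of 21 tested members higher and 1 lower (median 1.69, and the same counts without lung replicates 3 and 4). Klrc1, which encodes the inhibitory receptor NKG2A (chromosome 6, bases 129666015 to 129678973, minus strand), had 1286, 461, 405 and 1193 TPM in lung and 0.03, 0.1, 0.29 and 0.12 TPM in naive cells (9.34 ± 0.59, adjusted p = 2.51e-12). Klrk1, the activating receptor NKG2D, had 1374, 681, 433 and 1127 TPM in lung and 1.31, 2.23, 4.19 and 1.43 TPM in naive cells (8.05 ± 0.52, adjusted p = 2.77e-12). In both genes lung replicates 1 and 4 were the highest, as they were for the sum of NK cell markers, and no library overlapped. The part of NK cells in these levels was not tested. Tyrobp, an adaptor of such receptors, also belongs to the myeloid list and followed those markers across the lung libraries (108, 238, 1164 and 349 TPM, with at most 1.05 TPM in naive cells). Klrg1, a receptor of effector cells, had 26.5, 0, 1.79 and 11.2 TPM in lung and did not pass (adjusted p = 0.147). Cd160 was the member that fell, from 33.8, 30.6, 27.7 and 31.3 TPM in naive cells to 4.72, 0.12, 0 and 13.2 TPM in lung (-3.36 ± 0.80, adjusted p = 0.00533), with a call that was lost on the T cell identity scale (adjusted p = 0.0728).

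The promoters of 3 of these genes and of Lef1, the transcription factor with the largest fall among the core genes, are shown with the matches to 6 motifs that are bound by factors of T cell differentiation. Not shown are those of Ifng, Lgals3, Satb1 and Tcf7, which held no match to these motifs, and that of Tbx21, which held 1. The sequences are from RefSeq (build GRCm38.p6, the same assembly as mm10) and cover the 250 bases before the first listed transcription start, 5′ to 3′ on the strand of the gene. Capitals mark a match on either strand. Gzmb lies at chr14:56262335-56262584 (minus strand), Cxcr3 at chrX:101734148-101734397 (minus strand), Klrc1 at chr6:129678974-129679223 (minus strand) and Lef1 at chr3:131110047-131110296 (plus strand).
Gzmb: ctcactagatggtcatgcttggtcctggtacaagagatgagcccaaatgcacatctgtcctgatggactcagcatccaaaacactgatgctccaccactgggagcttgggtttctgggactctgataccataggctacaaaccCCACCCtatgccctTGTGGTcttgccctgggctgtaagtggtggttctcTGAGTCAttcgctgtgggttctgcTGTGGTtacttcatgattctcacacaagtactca
Cxcr3: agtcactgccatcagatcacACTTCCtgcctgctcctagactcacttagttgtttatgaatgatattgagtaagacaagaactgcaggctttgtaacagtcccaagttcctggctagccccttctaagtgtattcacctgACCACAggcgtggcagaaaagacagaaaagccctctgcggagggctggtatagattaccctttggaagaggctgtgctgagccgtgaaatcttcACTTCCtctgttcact
Klrc1: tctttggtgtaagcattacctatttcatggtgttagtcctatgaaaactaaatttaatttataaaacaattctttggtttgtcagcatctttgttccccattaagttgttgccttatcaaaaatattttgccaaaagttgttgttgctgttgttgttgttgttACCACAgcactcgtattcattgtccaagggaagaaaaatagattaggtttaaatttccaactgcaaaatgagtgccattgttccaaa
Lef1: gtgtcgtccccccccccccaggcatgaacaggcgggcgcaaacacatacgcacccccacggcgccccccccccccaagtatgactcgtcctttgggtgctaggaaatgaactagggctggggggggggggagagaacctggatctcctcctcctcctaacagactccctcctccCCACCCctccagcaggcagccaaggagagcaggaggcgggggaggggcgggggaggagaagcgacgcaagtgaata
In Gzmb the capitals are the KLF motif CCACCC at -107, the RUNX motif TGTGGT at -93 and -34, and the AP-1 motif TGANTCA at -58, each position being that of the first base counted back from the start site. In Cxcr3 they are the ETS motif GGAAGT, read on the other strand, at -230 and -16 and the RUNX motif at -110, in Klrc1 the RUNX motif at -87, and in Lef1 the KLF motif at -76. The GENCODE coordinates place the start of Cxcr3 at base 101734269, inside this window, so its matches at -110 and -16 lie within that gene. The windows of Gzmb and Lef1 end upstream of the GENCODE start. Of all 27025 promoters in the table, windows of the same length held the RUNX motif in 14.2%, AP-1 in 6.87%, ETS in 20%, KLF in 27.7%, the T-box motif GGTGTGA in 3.31% and the TCF/LEF motif CTTTGA in 14%. Of the named higher genes 60 had a promoter in the table, and 13 held the RUNX, 7 the AP-1, 20 the ETS, 21 the KLF, 1 the T-box and 11 the TCF/LEF motif. Of 32 named lower genes with a promoter, 4 held the RUNX, none the AP-1, 4 the ETS, 18 the KLF, 1 the T-box and 3 the TCF/LEF motif. Some of these motifs share letters, so 1 stretch can match more than 1 of them, and a match is a description of the sequence and not a bound site.

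Transcription factors moved in both directions, 14 higher and 13 lower of 50 tested (median 0.12). Without lung replicates 3 and 4 the counts were 11 and 8, on the T cell identity scale 16 and 2, and without naive replicate 1 there were 8 lower ones. Tbx21, which encodes T-bet, the factor that drives Ifng and Cxcr3, had 213, 95.9, 65.9 and 124 TPM in lung and 0.13, 0.38, 0.15 and 0.34 TPM in naive cells (6.53 ± 0.57, adjusted p = 1.66e-09). Id2, an inhibitor of E proteins that favours effector cells, had 2776, 2533, 1565 and 2709 TPM in lung and 153, 143, 137 and 162 TPM in naive cells (3.97 ± 0.44, adjusted p = 2.34e-07). Lung replicate 3 was the lowest lung library for both, and both stayed clear of the naive range. Its counterpart Id3, which marks cells with memory potential, had 4.56, 18.5, 8.98 and 17.4 TPM in lung and 99.8, 88.7, 83.9 and 104 TPM in naive cells. It was called lower (-3.0 ± 0.86, adjusted p = 0.0228), but no longer when naive replicate 1 or 4 or lung replicate 1 or 3 was left out (adjusted p between 0.0559 and 0.0701). Bhlhe40 rose by 5.23 ± 0.72, adjusted p = 7.19e-06, Runx2 by 4.44 ± 0.46, adjusted p = 4.7e-08 and Prdm1, which encodes Blimp-1, by 2.68 ± 0.53, adjusted p = 0.000885. Eomes, the relative of T-bet found in central memory cells, was low in both groups (1.13, 0.97, 1.91 and 3.85 TPM in lung, 1.54, 1.61, 1.29 and 1.25 TPM in naive cells) and did not pass (0.2 ± 0.58, adjusted p = 0.886).

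**Figure D2:**
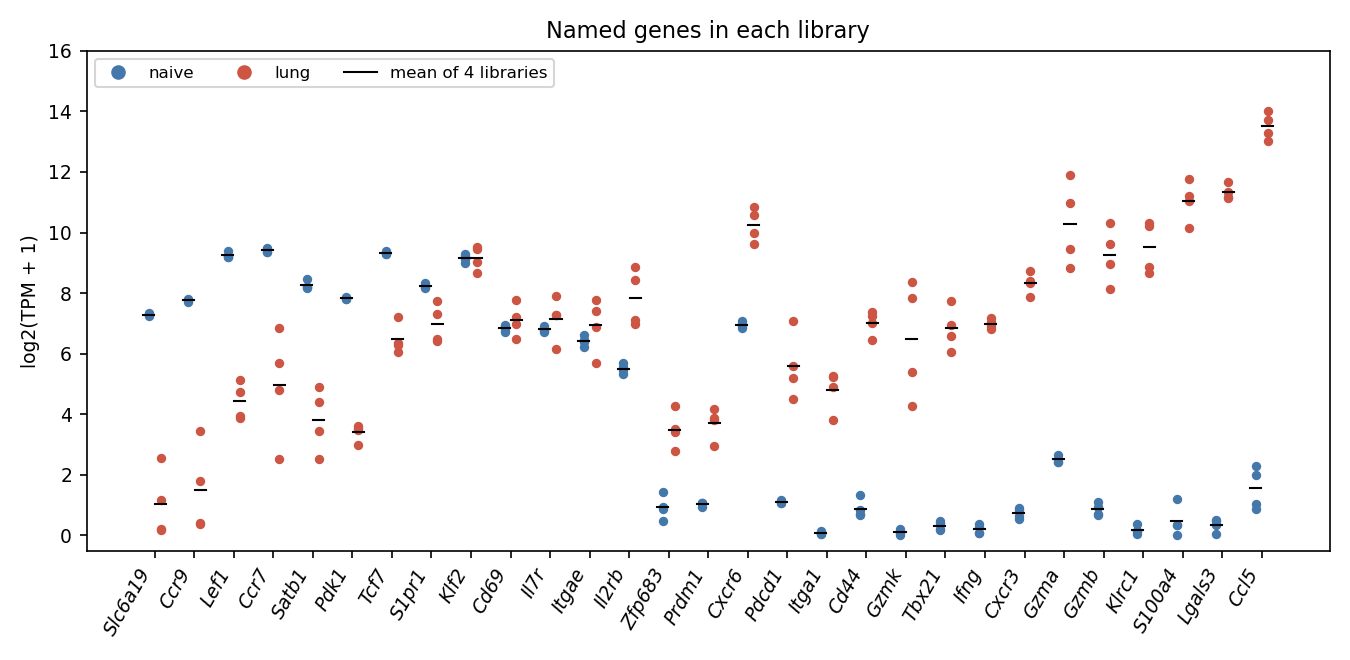
Level of 29 named genes, log2(TPM + 1), in each naive (blue) and lung (red) library, with a bar at the mean of the 4 libraries, ordered by the change from the largest fall to the largest rise. The lung points lie below all naive points for Slc6a19 to S1pr1, overlap with them for Klf2, Cd69, Il7r and Itgae, and lie above them from Il2rb to Ccl5.

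Genes of the naive and central memory state fell. Of 29 tested members 23 were lower and none higher (median -2.87), between 18 and 24 with 1 library left out, and 19 without lung replicates 3 and 4. On the T cell identity scale 7 were lower and 1 higher (median -1.89), and 15 with Trbc1 and Trbc2 left out of the sum (median -2.55). Lef1, which encodes a partner of beta-catenin and lies on chromosome 3 (bases 131110471 to 131224356, plus strand), had 14.6, 25.7, 13.7 and 34.3 TPM in lung and 674, 588, 586 and 595 TPM in naive cells (-4.83 ± 0.93, adjusted p = 0.000691). Satb1, an organizer of chromatin in T cells, had 20.3, 4.79, 10 and 28.6 TPM in lung and 355, 289.9, 295 and 290.1 TPM in naive cells (-4.44 ± 0.71, adjusted p = 7.14e-05). Both kept their call on both T cell identity scales. Tcf7, the gene of TCF1, had 80.7, 77.3, 64.9 and 146 TPM in lung and 628, 633, 665 and 628 TPM in naive cells. All lung libraries were below all naive ones and the change was -2.85 ± 0.61, adjusted p = 0.00221, but the call was lost on the T cell identity scale (adjusted p = 0.107). Ccr9, a chemokine receptor that guides T cells to the gut, had 0.34, 0.3, 9.93 and 2.44 TPM in lung and 221, 217, 209 and 217 TPM in naive cells. Its fall was among the largest (-6.25 ± 0.76, adjusted p = 8.99e-07) and it kept its call on both T cell identity scales.

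Genes of lymph node homing and of tissue exit fell with less certainty or did not pass. Ccr7, the receptor that guides T cells into lymph nodes, had 51.1, 4.78, 27 and 115 TPM in lung and 707, 662, 650 and 713 TPM in naive cells (-4.44 ± 1.24, adjusted p = 0.0191), and the adjusted p was 0.0882 without lung replicate 2, its lowest library. It did not pass on the T cell identity scale (adjusted p = 0.14), although no library overlapped. S1pr1 had 212, 83.7, 88.2 and 158 TPM in lung and 322, 289, 300.3 and 291 TPM in naive cells. Its lung libraries were also all below the naive ones, but the change did not pass (-1.25 ± 0.88, adjusted p = 0.429). Klf2, the factor that drives S1pr1, had 703, 401, 519.7 and 733 TPM in lung and 630.4, 504, 555 and 594 TPM in naive cells, and the groups overlapped (0.0089 ± 0.46, adjusted p = 0.999). Its direction turned negative under several alternatives, among them quantile normalization. Il7r, the receptor for the survival cytokine IL-7, overlapped as well, with 155, 152, 70 and 239.9 TPM in lung and 120.2, 109, 109 and 105 TPM in naive cells (adjusted p = 0.675, and 0.0337 on the T cell identity scale).

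Residency genes rose in part, 17 of 39 tested being higher and none lower (median 1.76, and 15 higher without lung replicates 3 and 4). Cxcr6, the receptor for a ligand of lung epithelium and myeloid cells, was already present in naive cells at 125, 120, 115 and 133 TPM and reached 1821, 1008, 796 and 1529.7 TPM in lung (3.3 ± 0.48, adjusted p = 1.95e-05). Itga1, which encodes CD49a, the integrin that binds collagen IV, had 37.8, 36.7, 13.1 and 29.1 TPM in lung and 0.03, 0.12, 0.04 and 0.05 TPM in naive cells (4.73 ± 0.66, adjusted p = 9.25e-06). No library overlapped for either gene, and lung replicate 3 was the lowest lung library for both. Rgs1, an inhibitor of chemokine receptor signalling, had 224, 146, 194 and 205 TPM in lung and 4.17, 3.34, 3.81 and 3.41 TPM in naive cells (5.35 ± 0.44, adjusted p = 6.54e-10). Zfp683, the gene of Hobit, a factor of resident cells, had 18.4, 10.5, 9.64 and 5.89 TPM in lung and 1.7, 0.82, 0.39 and 0.9 TPM in naive cells (2.57 ± 0.56, adjusted p = 0.00235). Its lung levels were low but lay above every naive library. The 2 best known surface markers of residency did not separate the groups. Itgae, which encodes the CD103 chain that binds E-cadherin, had 218, 116, 51.3 and 171 TPM in lung and 97, 82.5, 86 and 73.7 TPM in naive cells, and lung replicate 3 was the lowest of all 8 libraries (0.53 ± 0.61, adjusted p = 0.658). It passed as higher on the T cell identity scale (1.53, adjusted p = 0.031). Cd69, whose protein keeps S1PR1 off the surface, had 147, 126, 89.5 and 219 TPM in lung and 119, 110.2, 104 and 123 TPM in naive cells (0.28 ± 0.46, adjusted p = 0.773).

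Genes of circulating effector memory cells and of homing to inflamed tissue rose beside them. In the effector memory list 9 of 27 tested were higher and 3 lower (median 1.31, and 7 and 2 without lung replicates 3 and 4). The lower ones included Ccr7 and Klf3, neither of which passed on either T cell identity scale, and 1 gene was lower without lung replicate 2. Cx3cr1, the fractalkine receptor of effector cells, had 179, 28.7, 28.7 and 103 TPM in lung and at most 0.15 TPM in naive cells (5.83 ± 0.54, adjusted p = 5.96e-09), and S1pr5, a receptor for egress, was higher by 3.16. In the adhesion and homing list 15 of 39 were higher and 5 lower (median 0.88), with 24 higher and 1 lower on the T cell identity scale and 14 and 3 without lung replicates 3 and 4. Cxcr3, the receptor for interferon-induced chemokines (chromosome X, bases 101731535 to 101734269, minus strand), had 420.1, 322, 233 and 339 TPM in lung and 0.87, 0.55, 0.8 and 0.46 TPM in naive cells (7.6 ± 0.49, adjusted p = 2.68e-12). Cd44, the hyaluronan receptor that distinguishes memory from naive cells, had 164, 127, 85.7 and 152 TPM in lung and 0.63, 0.8, 1.54 and 0.58 TPM in naive cells (6.13 ± 0.45, adjusted p = 5.15e-11). Both separated the groups without overlap. Ccr2 rose by 6.56 ± 0.54, adjusted p = 5.14e-10, Ccr8 by 6.3 ± 0.80, adjusted p = 2e-06, Ccr10 by 6.59 ± 0.80, adjusted p = 8.82e-07 and the integrin beta chain Itgb1 by 4.49 ± 0.51, adjusted p = 2.9e-07. The lower ones included Ccr9, Ccr7, Itga4 and Itgb3, and 1 to 3 were lower when any single library other than lung replicate 4 was left out.

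**Figure D3:**
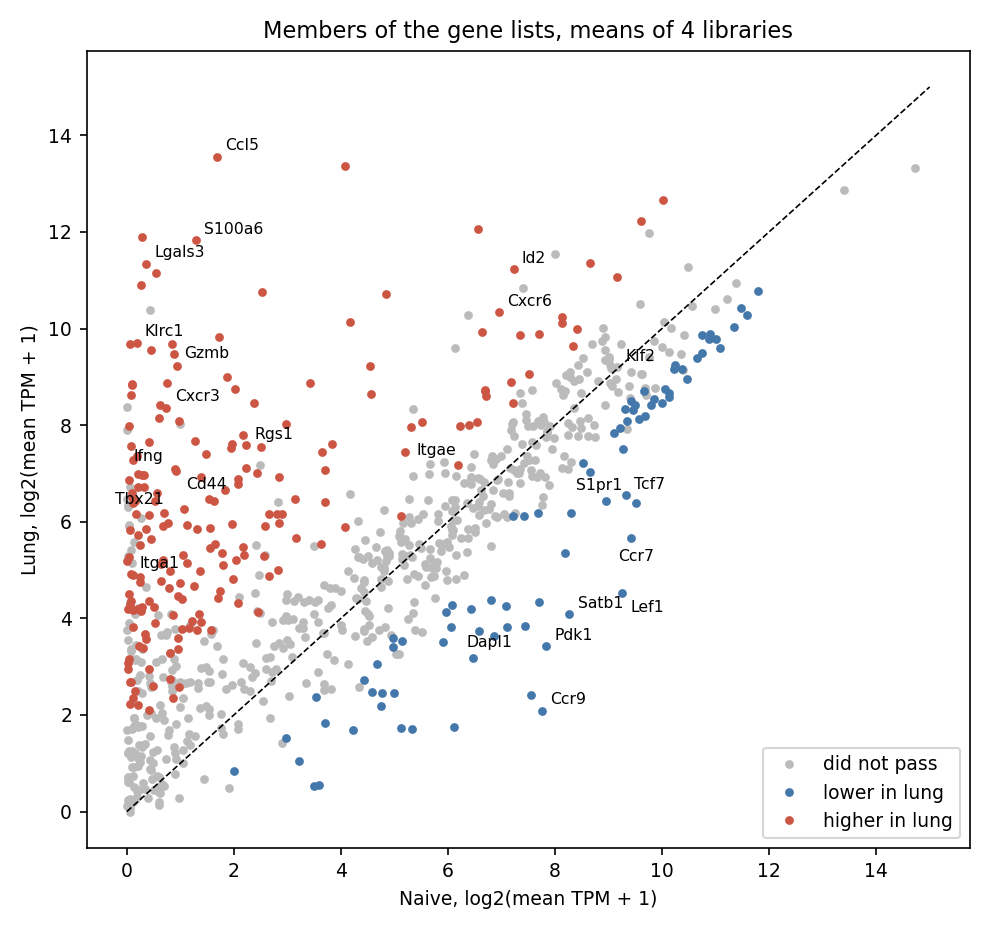
Mean level of each tested member of the gene lists, marker lists of other cells included, in naive (horizontal) and lung (vertical) libraries as log2(mean TPM + 1), with the line of equal levels dashed. Red and blue points passed as higher and lower in lung, and the genes far above the line at naive levels near 0, such as Ccl5, Lgals3 and Klrc1, are those with the largest changes.

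Genes of the S100, annexin and galectin families and of the cytoskeleton had the highest median of the lists of T cell programs, 2.96, with 18 of 26 tested higher and none lower, and 16 without lung replicates 3 and 4. Lgals3, the sugar-binding protein galectin-3 (chromosome 14, bases 47367751 to 47386160, plus strand), had 3284, 2566, 2293 and 2263 TPM in lung and 0.28, 0.4, 0.04 and 0.43 TPM in naive cells (10.98 ± 0.55, adjusted p = 3.32e-14). S100a6 had 3701, 5179, 3151 and 2538 TPM in lung and 0.95, 1.09, 1.37 and 2.4 TPM in naive cells (10.52 ± 0.57, adjusted p = 9.22e-14), and its calcium-binding neighbour on chromosome 3, S100a4, had 2374, 3454, 2092 and 1124 TPM in lung and 0.26, 1.31, 0.28 and 0 TPM in naive cells (10.56 ± 0.73, adjusted p = 1.3e-11). Lung replicate 4 was the lowest lung library for all 3 genes. Lmna, the nuclear envelope protein lamin A/C, rose by 8.19 ± 0.60, adjusted p = 5.35e-11, and Lgals1, galectin-1, by 5.42 ± 0.62. Macrophages also express several of these genes. Myeloid markers summed to 1602, 2897, 13963 and 10735 TPM in lung replicates 1 to 4. Lgals3 was highest in lung replicate 1, and S100a6 and S100a4 were highest in lung replicate 2. The part of macrophages in these levels was not tested.

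Ifitm1, Ifitm2 and Ifitm3, which encode antiviral membrane proteins, rose. They belong to a list with the Ly6 and Gimap families, of which 5 of 19 tested members were higher and 1 lower (median -0.36), with the same counts without lung replicates 3 and 4. On the T cell identity scale 7 were higher and none lower (median 0.66). Ifitm1 had 3989.5, 672, 365 and 2588 TPM in lung and 0.23, 0.35, 0.12 and 0.08 TPM in naive cells (10.05 ± 0.93, adjusted p = 6.68e-09). Ifitm2 rose by 7.73 ± 0.48, adjusted p = 1.91e-12 and Ifitm3 by 5.52 ± 0.69, adjusted p = 1.47e-06, and no library overlapped for any of the 3. Of 30 tested type I interferon response genes none was higher and 3 were lower (median -0.91, moving to 0.098 on the T cell identity scale), and 5 were lower without lung replicate 4. Without lung replicates 3 and 4 the count was again 3, and on the T cell identity scale it was 1. Oas2, an RNA sensor, had 0.31, 0.07, 0.64 and 0.87 TPM in lung and 13, 10.1, 10.5 and 10.4 TPM in naive cells (-3.05 ± 0.47, adjusted p = 4.08e-05) and kept its call on both T cell identity scales, but Usp18 and Ifit2 did not.

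Inhibitory and costimulatory receptors split, with 9 of 26 tested higher and 4 lower (median 0.51, 12 higher and none lower on the T cell identity scale, and 7 and 3 without lung replicates 3 and 4). Pdcd1, which encodes PD-1, had 135, 21.5, 36 and 47.8 TPM in lung and 1.08, 1.27, 1.2 and 1.12 TPM in naive cells (4.48 ± 0.76, adjusted p = 0.000128), with lung replicate 1 the highest. Havcr2, the gene of TIM-3, changed by 4.5 ± 0.74, adjusted p = 0.000106 and Tigit by 4.15 ± 0.77, adjusted p = 0.000435. Slamf6, a receptor kept on stem-like memory cells, fell from 317, 276, 252 and 318 TPM in naive cells to 29.5, 0.7, 18.8 and 111 TPM in lung (-3.98 ± 0.92, adjusted p = 0.0045), and was not called on the T cell identity scale (adjusted p = 0.103). Among cytokine receptors and their signalling genes 6 of 34 tested were higher and 3 lower (median 0.25). On the T cell identity scale 12 were higher and 1 lower (median 1.10), and without lung replicates 3 and 4 there were 4 in each direction. Il18r1 rose by 3.09 ± 0.46, adjusted p = 2.57e-05 and Il18rap, the other chain of the IL-18 receptor, by 4.96 ± 0.74, adjusted p = 2.35e-05. Il2rb, the chain shared by the IL-2 and IL-15 receptors, had 469, 126, 137 and 341 TPM in lung and 50.9, 42.9, 45.9 and 39.4 TPM in naive cells (2.34 ± 0.62, adjusted p = 0.014), with an adjusted p of 0.0545 without lung replicate 1, its highest library. The feedback inhibitors Cish and Socs2, which STAT5 induces, were higher by 4.93 and 4.66. Il6st, the signalling chain of the IL-6 receptor, fell from 40.8, 42.3, 46.2 and 27.7 TPM in naive cells to 1.82, 3.78, 1.73 and 1.75 TPM in lung (-3.64 ± 0.58, adjusted p = 6.87e-05) and kept its call on both T cell identity scales.

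Cell cycle genes rose by modest amounts, 15 of 40 tested being higher and none lower (median 1.29, and 15 without lung replicates 3 and 4). With 1 library left out between 10 and 16 were higher, the fewest without lung replicate 1 (median 0.88). Mki67, the proliferation antigen Ki-67, had 7.77, 3.36, 5.1 and 4.14 TPM in lung and 0.46, 0.24, 0.58 and 0.3 TPM in naive cells (2.08 ± 0.44, adjusted p = 0.00175). Its lung level was low beside Rrm2, a subunit of the enzyme that makes deoxynucleotides, at 155, 36.8, 56.2 and 33.1 TPM in lung and 5.59, 5.12, 7.62 and 5.71 TPM in naive cells (3.07 ± 0.64, adjusted p = 0.00166). Genes of DNA replication licensing, Mcm2 to Mcm7, did not pass and changed by between -0.47 and 0.74. The list of cell cycle inhibitors and quiescence genes had 4 of 23 higher and 1 lower (median 0.49), and 2 higher without any 1 naive library or lung replicate 1 or 4. Without lung replicates 3 and 4 there were 2 higher and 1 lower, and on the T cell identity scale 8 higher and none lower. Cdkn1a, the inhibitor p21, had 77, 67.1, 70.7 and 65.3 TPM in lung and 0.46, 0.36, 0.15 and 0.37 TPM in naive cells (5.74 ± 0.46, adjusted p = 2.61e-10), and the lung libraries hardly differed among themselves. Pik3ip1, an inhibitor of PI3 kinase, fell by 3.44 ± 0.67 (adjusted p = 0.000746).

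Immediate early genes, which cells switch on soon after a stimulus, had 13 of 38 tested higher and 2 lower (median 0.74). There were 8 higher and 2 lower without lung replicates 3 and 4, 18 and none on the T cell identity scale, and 1 was lower without any 1 naive library or lung replicate 2 or 3. Fos had 67, 45, 253 and 101 TPM in lung and 2.86, 2.52, 3.22 and 4.22 TPM in naive cells, with lung replicate 3 the highest (4.51 ± 0.90, adjusted p = 0.00105), while its partner Jun changed by 0.38 and did not pass. Nr4a1, a reporter of recent receptor signalling, had 27.6, 22.6, 18.8 and 19.5 TPM in lung and 4.72, 4.11, 4.55 and 3.75 TPM in naive cells, without overlap, but did not pass (adjusted p = 0.106). In the heat shock list 3 of 16 were higher, 1 without any 1 naive library or lung replicate 1 or 2, and 2 without lung replicates 3 and 4. Hspa1a, an inducible HSP70, had 32.3, 24.8, 4.96 and 49 TPM in lung and 0.04, 0.27, 0.25 and 0.17 TPM in naive cells (4.25 ± 1.11, adjusted p = 0.0118).

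Metabolic lists stayed near the background. Of 38 tested nuclear genes of the respiratory chain none passed in either direction with limma (median 0.067), 3 were higher and none lower at an unadjusted p under 0.05, and 13 were higher on the T cell identity scale. Glycolysis and hypoxia genes had 2 higher and 2 lower of 29 (median 0.45), and lipid uptake and oxidation genes 2 higher and 1 lower of 32 (median 0.30). Leaving out any 1 naive library took both glycolysis counts and the higher lipid count to 1. On the T cell identity scale the glycolysis list had 5 higher and 1 lower (median 1.33) and the lipid list 3 higher and none lower. Without lung replicates 3 and 4 no glycolysis gene was higher and 2 were lower, 1 lipid gene was higher and none lower, and no respiratory chain gene passed. Pdk1, a kinase that keeps pyruvate out of the mitochondria, had 10.3, 6.85, 10.6 and 11.2 TPM in lung and 227, 233, 222 and 223 TPM in naive cells (-4.43 ± 0.64, adjusted p = 1.42e-05) and kept its call on both T cell identity scales. Plin2, which coats lipid droplets, rose by 3.05 ± 0.62, adjusted p = 0.00119, with lung replicate 3 at 136 TPM and the other lung libraries at 29.9 to 35.8 TPM.

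Ribosomal protein genes had the most members lower of all lists. Of 46 tested 33 were lower and none higher (median -1.19), with the lowest count of 20 without naive replicate 1, and 14 without lung replicates 3 and 4. On the T cell identity scale none passed (median -0.17), and 3 did with Trbc1 and Trbc2 left out of the sum (median -0.86). Rps20 had 141, 222, 237 and 118 TPM in lung and 736, 592, 592 and 548 TPM in naive cells, without overlap (-1.83 ± 0.32, adjusted p = 0.000175). Many ribosomal protein genes have near-identical processed copies, among which the counting could split reads, so single values are uncertain. Among T cell receptor signalling genes 3 of 30 were lower and none higher (median -0.34), with 1 lower without any 1 naive library or lung replicate 2 or 3, and 1 without lung replicates 3 and 4. On the T cell identity scale the direction turned, with 2 higher and none lower (median 0.66). Survival and cell death genes had 8 of 31 higher and none lower (median 0.19, and 7 higher without lung replicates 3 and 4), led by Fasl, the paralogs Bcl2a1d and Bcl2a1b, whose reads can be shared, and Casp1. TGF-beta response genes had 3 higher and 3 lower of 24 (median 0.26), and 1 lower without lung replicate 3. No member was lower on the T cell identity scale (5 higher), on that scale without Trbc1 and Trbc2 (3 higher) or without lung replicates 3 and 4 (2 higher).

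**Figure D4:**
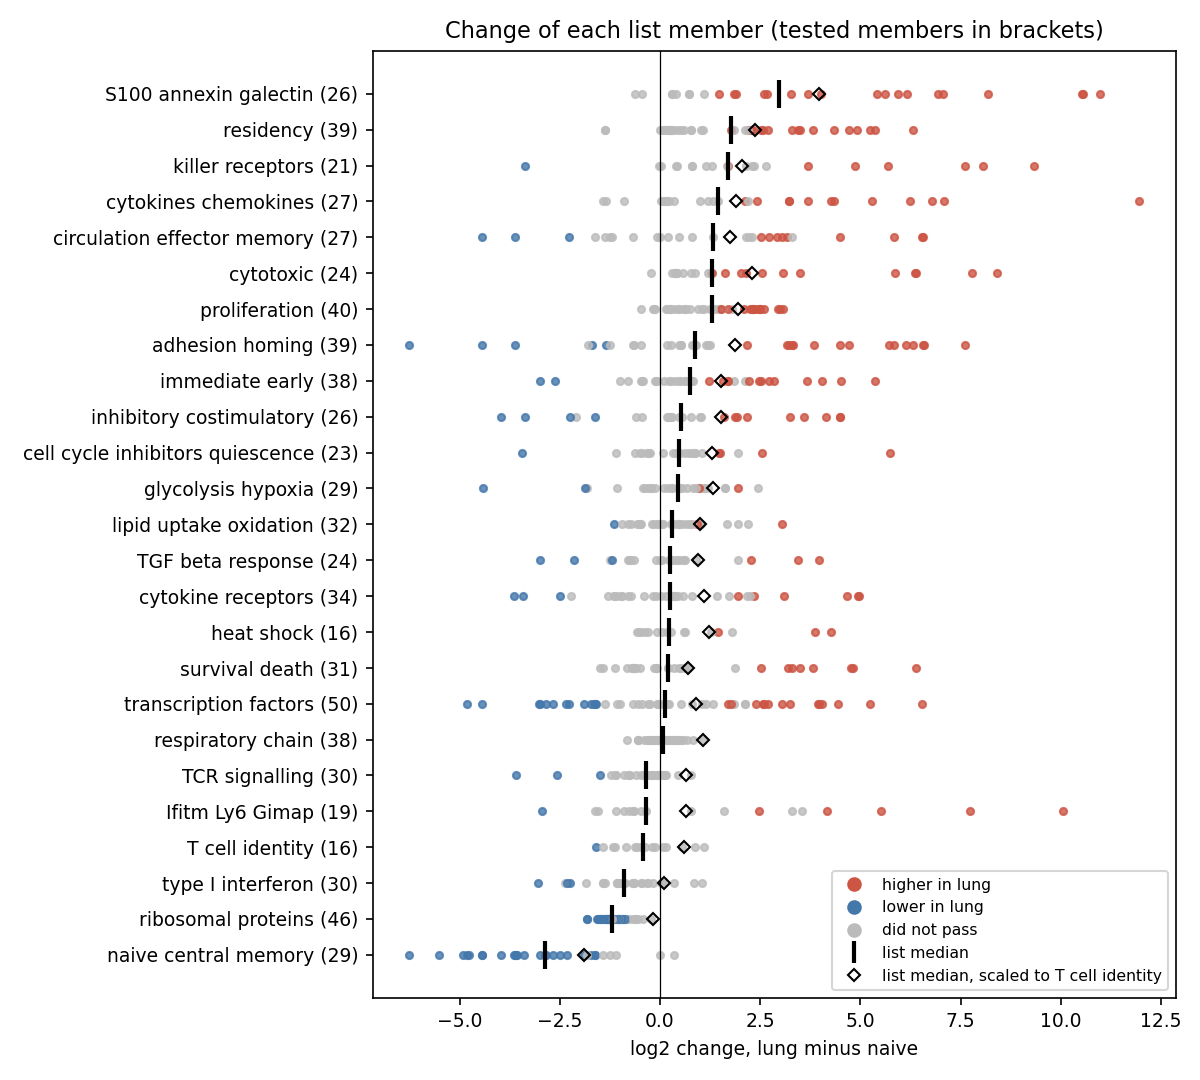
Change of every tested member of the gene lists (points, log2 scale, lung minus naive), coloured by the test, with the list median as a bar and the median on the T cell identity scale as a diamond. Medians range from -2.87 for naive and central memory genes to 2.96 for S100, annexin and galectin genes, and every diamond lies to the right of its bar.

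The genes with the widest gap between the groups included several with no list. Among rising genes Tppp3, a tubulin-binding protein (chromosome 8, bases 105467493 to 105471526, minus strand), had 358, 249, 204 and 215 TPM in lung and 0.12, 0.25, 0.2 and 0.2 TPM in naive cells (7.72 ± 0.92, adjusted p = 7.28e-07). Metrnl, a secreted cytokine-like protein, had 164, 124, 138 and 169 TPM in lung and 0.11, 0.22, 0.1 and 0 TPM in naive cells (7.07 ± 0.39, adjusted p = 9.96e-14), with little spread in lung. Among falling genes Slc6a19, a transporter of neutral amino acids (chromosome 13, bases 73679745 to 73704865, minus strand), had 1.25, 0.16, 0.14 and 4.93 TPM in lung and 163, 156, 153 and 151 TPM in naive cells (-6.26 ± 0.74, adjusted p = 5.79e-07). Slc16a5, a monocarboxylate transporter, had 0.45, 1.73, 0.97 and 3.94 TPM in lung and 134, 128, 121 and 126 TPM in naive cells (-5.68 ± 0.68, adjusted p = 7.43e-07). Dntt, the terminal transferase of receptor rearrangement in the thymus, fell from 30.2, 30.5, 27.1 and 29.4 TPM to at most 0.36 TPM in lung (-4.74 ± 0.40, adjusted p = 8.53e-10). The prohormone convertase Pcsk1 fell by 4.55 ± 0.43 (adjusted p = 8.48e-09), Map7, a microtubule-binding protein, by 4.24 ± 0.41 (adjusted p = 1.37e-08), Pacsin1, a protein of membrane bending, by 3.98 ± 0.65 (adjusted p = 8.93e-05) and Tdrp by 5.52 ± 0.79 (adjusted p = 1.36e-05). The largest fall was that of RP24.353A8.2, a gene listed by its clone name, by 6.36 ± 0.92 (adjusted p = 1.66e-05). The rule that chose these falling genes required higher levels in every naive library than in every lung library. All of them kept their call on both T cell identity scales.

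Lung cells were also compared with the memory cells of spleen and lymph node, and few of the named genes passed. Skin and liver were not compared with lung here. In the same fit 10 genes (0.0507%) were higher and 12 (0.0608%) lower in lung than in spleen, and 29 (0.147%) higher and 62 (0.314%) lower in lung than in lymph node memory cells. Of the 124 named genes 2 passed against spleen and 4 against lymph node memory cells. Not passing does not show equal levels. Ifng (adjusted p = 0.0768) and Lmna (adjusted p = 0.0962) were higher in every lung library than in every spleen library. Map7 was lower in every lung library than in every spleen library (adjusted p = 0.0762). The spleen libraries varied widely, with Lef1 at 10.5, 4.88, 313 and 67.5 TPM and Ccr7 at 14.2, 8.5, 445 and 140 TPM. Rgs1 was higher in lung than in spleen, where it had 36.3, 22.2, 14.7 and 85.8 TPM, by 2.53 ± 0.44 (adjusted p = 0.00726). Cdkn1a was also higher than in spleen, at 21.4, 18.3, 10.8 and 9.5 TPM there, by 2.22 ± 0.46 (adjusted p = 0.0383), but the adjusted p was between 0.0503 and 0.111 when any single lung or naive library, or spleen replicate 3 or 4, was left out. Klf2 was higher in lung than in lymph node memory cells, at 129, 107, 105 and 146 TPM there, by 2.24 ± 0.46 (adjusted p = 0.0186), and between 0.0507 and 0.0815 without lung replicate 3 or 4 or lymph node replicate 1, 2 or 3. Tppp3 was higher than in lymph node memory cells, at 4.42, 3.49, 23.7 and 4.2 TPM there, by 5.07 ± 0.92 (adjusted p = 0.00668). Rgs1 and Cdkn1a did not pass against lymph node memory cells (0.28 and 1.78, adjusted p = 0.862 and 0.0737). Klf2 and Tppp3 did not pass against spleen (-0.16 and 1.27).

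Both genes that were lower in lung than in lymph node memory cells were also lower than in naive cells. Against spleen neither Cd160 nor Pacsin1 passed (adjusted p = 0.287 and 0.583). Cd160 had 58.7, 74.9, 50.1 and 46.7 TPM in lymph node memory cells and its lung level was lower by 4.22 on the log2 scale (SE 0.80, adjusted p = 0.0095, and 0.0594 without lung replicate 3). Pacsin1 had 17.8, 22.1, 22.6 and 23.6 TPM there, and lung was lower by 3.10 (SE 0.65, adjusted p = 0.0223), a call lost without lung replicate 2 or 3 or lymph node replicate 1, 2 or 3 (adjusted p between 0.0554 and 0.0838). The residency genes Itgae and Zfp683 were higher in every lymph node memory library but 1 (Itgae) or all (Zfp683) than in every lung library, but neither difference passed (adjusted p = 0.48 and 0.122). S1pr1 had 19.4 to 48.9 TPM in lymph node memory cells and 83.7 to 212 TPM in lung, without overlap, and did not pass either (adjusted p = 0.416).

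**Figure D5:**
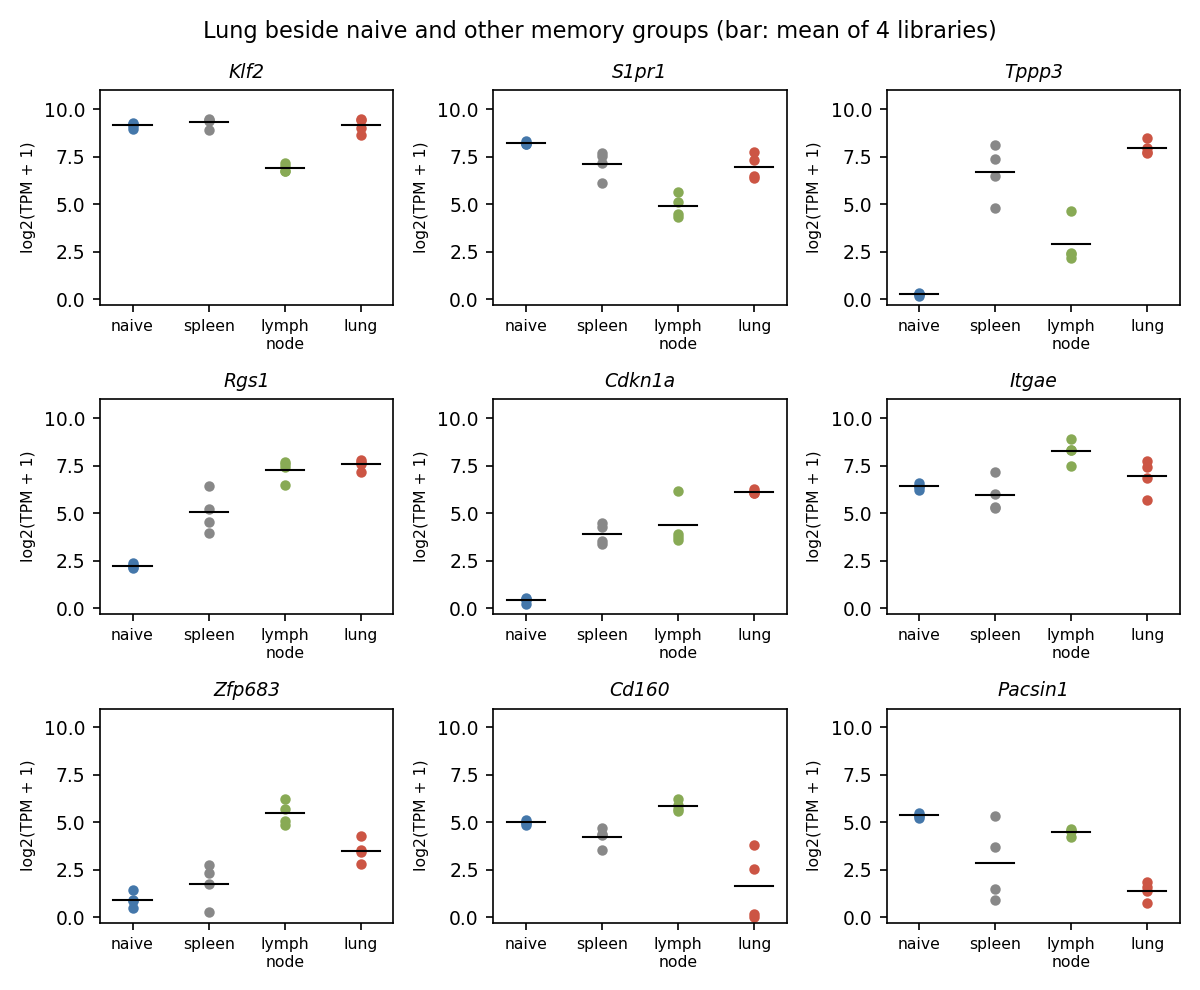
Level of 9 genes, log2(TPM + 1), in the naive, spleen, lymph node memory and lung libraries, 4 points per group with a bar at their mean. Klf2 and Tppp3 lie higher in lung than in lymph node memory cells, Rgs1 and Cdkn1a higher than in spleen, and Cd160 and Pacsin1 lower than in lymph node memory cells, while S1pr1, Itgae and Zfp683 did not pass between lung and spleen or between lung and lymph node memory cells.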

How the data were processed

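The 8 libraries compared are part of a table of 32 libraries in 8 groups of 4, grouped by their titles. The submitters' processing notes name Bowtie and the build mm10. Versions, annotation and counting were not given in the sources used here. Natural log values, ln(TPM + 1), were deposited by the authors, as the values themselves show: converted back, all are multiples of 0.01 TPM and the sums of the libraries run from 999999.06 to 1000000.8 TPM. Depth per library is therefore unknown.

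TPM + 1 was converted to log2, and 19738 of 42409 genes above 0 in any library, those reaching 1 TPM in 4 libraries or more, entered 1 linear model over all 8 groups with limma 3.58.1 in R 4.3.3 (variance trend, 24 residual degrees of freedom). Benjamini-Hochberg adjustment ran over all genes, with a threshold of 0.05. On simulated data with 19738 genes the fit recovered 67 of 100 genes changed by 2 on the log2 scale and 99 of 100 changed by 4, and called 74 unchanged ones. Beside the 67 and 99 recovered, these 74 put the share of false calls well above the threshold of 0.05. Fewer genes were changed in the simulation than were called in the data, so that share cannot be carried over to the data. Python 3.11.15 with pandas 2.3.3, NumPy 2.4.6 and Matplotlib 3.10.9 served for sums and figures. Gene positions are from GENCODE for mm10.

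The comparison, the gene lists (24 programs and T cell identity, and 12 lists of other cells) and the tests were chosen with earlier results of these data known. Named genes are 26 core genes, the 12 genes in each direction with the widest gap between the groups (mean of at least 4 in the higher group, no overlap), and up to 4 called members of each list in each direction. The text prints a part of them, 1 core gene is not reported here, and list members outside the rule (Ccl3, Xcl1, Csf2, Il2, Tnf, Slamf7, Prf1, Klrg1, S1pr5, Lgals1, Nr4a1, Jun, Itgb3, the Mcm genes and the T cell and marker genes) were added after their values were seen. Alternatives were no filter, a filter of 5 TPM, a pseudocount of 0.1, only the 8 libraries, array and group weights, a replicate block, 2 scalings, dropping 6 libraries of other groups with a low T cell identity sum, and leaving out each library. Scaling to the T cell identity sum, with and without Trbc1 and Trbc2, leaving out lung replicates 3 and 4, and the 8 libraries with the block were added after the data were seen.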

Additional observations from a re-analysis of the deposited data

Results flagged for a closer look

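Each named gene was checked for 1 library far from the other 3 of its group. This held in 13 of 248 sets of 4 libraries, where chance gives about 1 in 20. Among naive cells replicate 1 was the highest for Lef1 (674 TPM), Satb1 (355 TPM) and Oas2 (13.02 TPM), and replicate 3 for Tcf7 (665 TPM) and Ccr2 (4.45 TPM, with at most 0.5 TPM in the others). Smurf2 was highest in naive replicate 2 (11.3 TPM), and Prdm1 was lowest in naive replicate 4 (0.91 TPM). Ccr10 was listed at 0 in naive replicate 2 and at 0.04 TPM in the other 3. Among lung cells replicate 3 was the lowest for Id2 (1565 TPM) and Hspa1b (7.18 TPM) and the highest for Plin2 (136 TPM). Lung replicate 1 was the lowest for Rpl7 (346 TPM), and lung replicate 2 the highest for Il6st (3.78 TPM).

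The change from naive cells differed between lung and another memory group for 6 named genes, by the contrast of the groups in the limma fit. Against lymph node memory cells the lung change was larger by 2.24 for Klf2 (adjusted p = 0.0186) and by 5.07 for Tppp3 (adjusted p = 0.00668), and the difference was -3.1 for Pacsin1 (adjusted p = 0.0223) and -4.22 for Cd160 (adjusted p = 0.0095). Against spleen it was larger by 2.53 for Rgs1 (adjusted p = 0.00726) and by 2.22 for Cdkn1a (adjusted p = 0.0383). The naive libraries cancel in these differences.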

How the results depend on the processing

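Under most alternatives the counts of genes higher and lower in lung stayed within 1.5 times 959 and 895. They moved further to 2073 and 1379 with array weights, to 1363 lower with weights per group, to 1931 and 2214 when 6 libraries of other groups with a low T cell identity sum were dropped, and to 1361 lower with quantile normalization. Added after seeing the data, the T cell identity scale gave 1489 and 88, that scale without Trbc1 and Trbc2 218 lower, leaving out lung replicates 3 and 4 580 lower, and the 8 libraries with the replicate block 455 lower. Leaving out 1 library gave 680 to 975 higher and 596 to 999 lower, the last below 1.5 times without naive replicate 1. The replicate block gave 1039 and 942. No label says that lung and naive libraries of the same number share more than that number. The correlations of their deviations were 0.091, 0.0413, 0.00878 and 0.109. In lung replicates 1, 2 and 3 another naive number correlated better (0.109, 0.168 and 0.021). Deviations within a group of 4 libraries depend on each other, so these correlations cannot decide whether the numbers pair libraries. Of 118 called named genes 97 passed whichever of the 8 libraries was left out. Klf2, which was not called, changed sign with quantile normalization (-0.009979), without naive replicate 2 (-0.04942) or 3 (-0.00307), without lung replicate 1 (-0.08999) or 4 (-0.1098, the lowest of a range that reached 0.1802 without lung replicate 2) and without lung replicates 3 and 4 (-0.09956). Eomes did so with quantile normalization (-0.07975), without lung replicate 4 (-0.07018, against up to 0.3631 without lung replicate 2) and without lung replicates 3 and 4 (-0.239). The cause was not tested. With depth unknown, no limit of detection can be given for genes listed at 0.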

Other observations

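The genes ranked 13 to 24 by the gap between the groups, mostly outside the rule for naming and read after their values were seen, hold further genes of effector and naive cells. Fgl2, Dkkl1 and Serpina3g rose. Fgl2, a secreted protein of the fibrinogen family, had 220.4, 64.3, 62 and 182 TPM in lung and 0.05, 0, 0.11 and 0.08 TPM in naive cells (6.75 ± 0.89, adjusted p = 3.67e-06). Serpina3g, an inhibitor of cathepsins, had 194, 78.5, 69.3 and 146 TPM in lung and 0.14, 0.07, 0.44 and 0.53 TPM in naive cells (6.46 ± 0.56, adjusted p = 1.89e-09). Dkkl1 had 167, 101, 125 and 143 TPM in lung and 0.68, 0.62, 1.09 and 0.91 TPM in naive cells (6.19 ± 0.81, adjusted p = 3.82e-06). The lack of overlap in all 3 was a condition of this ranking. Ccl6, a chemokine that myeloid cells make, had 112, 215, 1134 and 772 TPM in lung, highest in replicates 3 and 4 as the myeloid markers were, and at most 0.17 TPM in naive cells. Its part from other cells was not tested.

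Among the falling genes of the same ranks, Amigo2, an adhesion molecule, had 1.4, 0.1, 1.03 and 0.02 TPM in lung and 21.2, 20.4, 21.1 and 20.3 TPM in naive cells (-3.83 ± 0.49, adjusted p = 2.69e-06). Art2b, an ADP-ribosyltransferase of the T cell surface, had 0.22, 0.35, 0 and 10.1 TPM in lung and 64.5, 78, 76.9 and 70.7 TPM in naive cells (-5.15 ± 0.69, adjusted p = 5.74e-06), with lung replicate 4 the highest lung library. Actn1, the actin crosslinker alpha-actinin 1, had 2.41, 2.26, 2.43 and 2.16 TPM in lung and 39.9, 30.5, 35.2 and 30.1 TPM in naive cells (-3.39 ± 0.45, adjusted p = 4.06e-06), and its lung libraries were close to each other. In the small list for CD4 and regulatory T cells 2 of 5 tested genes were higher and none lower. Of these 2, Cd40lg, the ligand of CD40, rose to 37.4, 60, 42.7 and 67.6 TPM in lung from at most 0.31 TPM in naive cells (5.48 ± 0.42, adjusted p = 1.21e-10). Cd4 and Foxp3 were at most 9.61 and 2.39 TPM in lung and did not pass.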
